A study of Mus musculus with 2 samples.

Results

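The neural miRNA genes Mir124a-1, Mir124a-2, Mir124a-3, Mir9-1, Mir9-2, Mir9-3, Mir132, Mir212, Mir128-1 and Mir128-2 were examined in the liver of mouse embryos. They were chosen by name, as genes whose miRNAs are known from the nervous system, with earlier results of these data known. Of these 10 genes, 9 were analysed among the 1973 annotated miRNA genes of the count tables, and Mir9-1 is not analysed here. The tissue was liver from B6NCrl embryos of day 12.5, males and females pooled, described as healthy, with no allele or treatment named in the labels. The 2 libraries form a single group: replicate 1 pooled 120 embryos and replicate 2 pooled 88. The labels give both pools 1 donor identifier, so the spread between them may in part be technical, and there is no second condition to compare with.

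miRNAs are short RNAs cut from a hairpin precursor. One or both arms of the hairpin are kept as mature miRNA, and the seed, bases 2 to 8 from the 5′ end, sets most of the pairing with target mRNAs. miR-124 is the abundant miRNA of neurons and represses non-neuronal transcripts. miR-9 acts in neural progenitors and in their change to neurons. miR-132 and miR-212 come from a single locus that the transcription factor CREB induces on neuronal activity, and miR-128 restrains neuronal excitability. In embryonic liver, neurons are not a main cell type, while blood progenitors, hepatoblasts, endothelium and mesenchyme are.

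The mature sequences are shown because they bear on which reads of these genes could be counted: reads that aligned to several places were kept out of the gene counts. They come from RefSeq (GRCm38.p6), whose hairpins matched 7 of the 10 genes (all but Mir124a-1, Mir124a-2 and Mir124a-3). The single-copy pair lies on the plus strand of chromosome 11, Mir212 at chr11:75173388-75173478 and Mir132 203 bases further on, at chr11:75173682-75173747. Both lie in an intron of the transcript 1700016P03Rik. Capitals mark the seed.
miR-132-3p: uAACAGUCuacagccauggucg
miR-212-3p: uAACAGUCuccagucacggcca
miR-132-5p: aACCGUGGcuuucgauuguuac
miR-212-5p: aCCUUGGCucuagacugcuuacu

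The 3p arms of Mir132 and Mir212 share the seed AACAGUC, which no other gene of the RefSeq table carries. They are the same at 17 of 22 positions and differ by A10C, C14U, U17C, U20C and G22A, with miR-132-3p first and positions counted from its 5′ end. Their 5p arms have different seeds. None of the 4 arms occurs in a second one of the 1005 RefSeq hairpins, so these hairpins give no reason for their reads to be set aside.

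The other genes exist as copies with identical arms. Mir128-1 lies at chr1:128202361-128202430 on the plus strand in an intron of R3hdm1, and Mir128-2 at chr9:112118636-112118711 on the minus strand in an intron of Arpp21, a gene of neurons. They share the 3p arm with the seed CACAGUG, while their 5p arms have the same seed GGGGCCG but are different sequences. Mir9-1 (chr3:88215598-88215686), Mir9-2 (chr13:83738814-83738885) and Mir9-3 (chr7:79505264-79505353) are all on the plus strand in long noncoding RNA genes, in an intron of Gm3764, an exon of C130071C03Rik and an intron of Mir9-3hg. They share both arms.
miR-128-3p (both copies): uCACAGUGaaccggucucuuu
miR-128-1-5p: cGGGGCCGuagcacugucuga
miR-128-2-5p: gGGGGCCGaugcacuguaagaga
miR-9-5p (all 3 copies): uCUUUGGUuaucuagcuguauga
miR-9-3p (all 3 copies): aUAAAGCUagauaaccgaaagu

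The Mir124a genes lie in exons of long noncoding RNA genes, Mir124a-1 in Mir124a-1hg (chr14:64590657-64590741), Mir124a-2 in Mir124-2hg (chr3:17795662-17795770) and Mir124a-3 in Gm27032 (chr2:180894040-180894107), all on the plus strand. Coordinates and overlapping genes of all 10 are those of GENCODE M21 on mm10, the assembly of the count tables.

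Sequencing depth was 11057424 reads for replicate 1 and 11013976 for replicate 2, and the sense counts on miRNA genes summed to 3447858 and 3534816. Reads placed at several sites numbered 3180324 and 3427344. Levels are given as CPM, a gene's sense counts per 1000000 such counts over all miRNA genes, not scaled by length, since a read covers about 1 mature miRNA and the arms shown here are 21 to 23 bases long. Brackets after a count's level give its exact Poisson 95% interval, which covers counting error only, as do all intervals and limits here. The reads carry no molecular identifiers, so these intervals are for reads and not for molecules. Markers of cell types of the embryonic liver were high. The hepatocyte miRNA gene Mir122 stood at 54020 ± 9747 CPM (SD, n = 2) and ranked 2, and the endothelial Mir126a stood at 68490 ± 461 CPM and ranked 1. The erythroid Mir451a differed between the libraries, with 12422 CPM in replicate 1 and 32496 CPM in replicate 2.

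Of the 9 neural genes analysed, 4 reached 10 CPM in both libraries, namely Mir132, Mir128-1, Mir128-2 and Mir212, where 15.3% of all 1973 genes did so. That share was 3.68% for the 1115 genes with no RefSeq arm and higher in each class of genes with an arm, as given below. Another 4 of the 9 had 0 sense counts in both libraries, as had 1219 of all 1973 genes, and Mir9-3 had a few. Together the 9 genes held 1106 counts in replicate 1 and 1031 in replicate 2, or 0.0306% ± 0.00206 (SD, n = 2) of the miRNA counts. The single-copy Mir132 and Mir212 made up 155 ± 4.15 CPM of this, and the multi-copy genes 151 ± 16.4 CPM. In a whole tissue, few cells with a high level and many cells with a low level cannot be told apart.

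**Figure D1:**
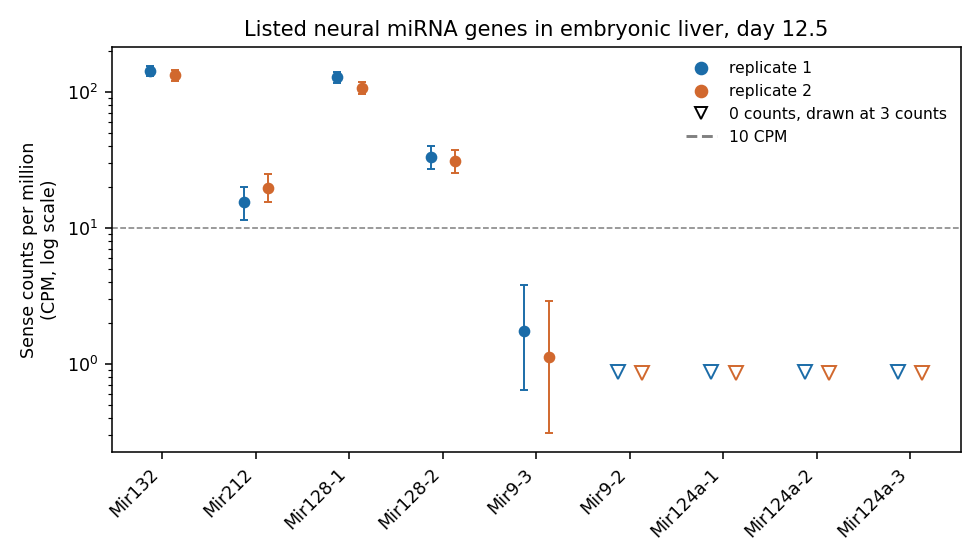
Sense counts as CPM (log axis) of the 9 neural miRNA genes analysed, 1 point per replicate with its exact Poisson 95% interval; open triangles are genes with 0 counts, drawn at the level of 3 counts, and the dashed line is 10 CPM. Mir132 and Mir128-1 sit above 100 CPM in both replicates, Mir128-2 and Mir212 between 15.4 and 33.1 CPM, and Mir9-3 below 2 CPM.

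Mir132, whose miRNA shapes dendrite growth and synapses in neurons, had the highest level in uniquely placed reads among the 9 genes. It had 492 counts in replicate 1, or 142.7 CPM (130 to 156), and 468 counts in replicate 2, or 132 CPM (121 to 145). The replicates lay close together, with a mean of 138 ± 7.28 CPM (SD, n = 2) and rank 198 of 1973. The hepatocyte Mir122 exceeded it 391 ± 50.1 times and the endothelial Mir126a 499 ± 23.0 times. The myeloid Mir223 exceeded it 45.4 ± 4.51 times and the mesenchymal Mir143 143 ± 14.3 times, while the ratio of the erythroid Mir451a to Mir132 was 87.0 in replicate 1 and 245 in replicate 2.

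Mir212, the partner of Mir132 in the same locus, was present at a lower level. It had 53 counts in replicate 1, or 15.4 CPM (11.5 to 20.1), and 70 counts in replicate 2, or 19.8 CPM (15.4 to 25.02). Replicate 2 was the higher one here, but the counting intervals overlapped. The mean was 17.6 ± 3.13 CPM (SD, n = 2), at rank 282. Mir132 exceeded Mir212 by 9.28 times in replicate 1 (Clopper-Pearson 95% interval 6.98 to 12.6) and by 6.69 times in replicate 2 (5.19 to 8.72), a mean of 7.98 ± 1.84. Mir132 was thus the larger part of the pair in both libraries, and the intervals of the 2 ratios overlapped. Counts of the 5p and 3p arms are added up per gene, and how well each arm was captured was not measured, so this need not be the ratio of the true levels.

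The genes nearest to Mir132 in level over both libraries, by Euclidean distance in log2(CPM + 1), were Mir1247 at 138 ± 22.1 CPM (SD, n = 2), Mir293 at 127 ± 1.43 CPM and Mir29c at 130 ± 6.02 CPM. The mean of Mir293, from a miRNA cluster of pluripotent cells, was below both libraries of Mir132, and the libraries of the other two overlapped with those of Mir132. Nearest to Mir212 were Mir7689 at 19.2 ± 2.09 CPM, Mir190b at 17.5 ± 0.0974 CPM and Mir3070a at 17.6 ± 0.108 CPM, each with a mean within the SD of Mir212. With 2 libraries, likeness of pattern here is little more than likeness of level.

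**Figure D2:**
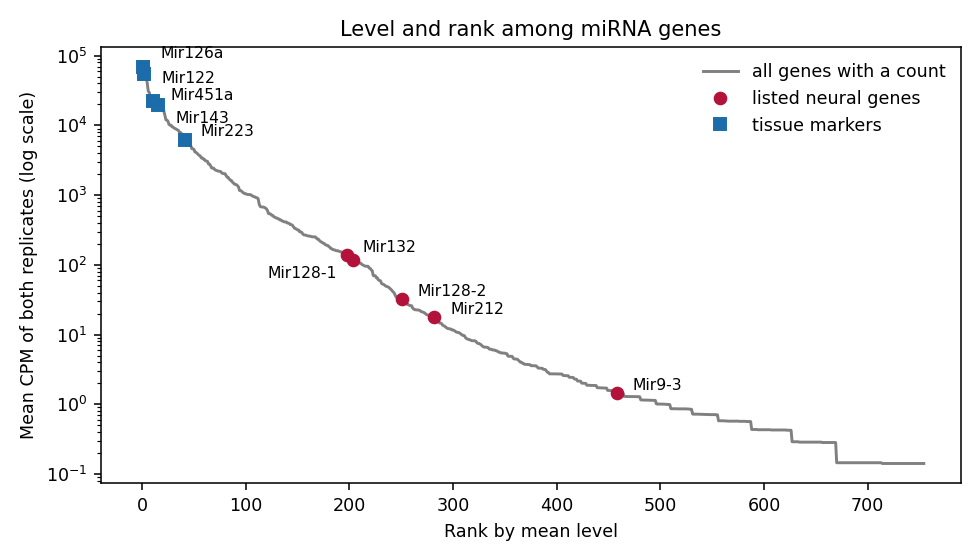
Mean CPM of both replicates (log axis) against rank for the 754 miRNA genes with a count, with the neural genes that had counts as circles and 5 tissue markers as squares. Mir132 ranks 198 and Mir212 ranks 282, while the tissue markers rank between 1 and 41.

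Both Mir128 genes were counted in both libraries, Mir128-1 at several times the level of Mir128-2. Mir128-1 had 441 counts in replicate 1, or 128 CPM (116 to 140.4), and 380 counts in replicate 2, or 107.5 CPM (97.0 to 119), a mean of 118 ± 14.4 CPM (SD, n = 2). Mir128-2 had 114 and 109 counts, or 33.1 CPM (27.3 to 39.7) and 30.8 CPM (25.3 to 37.2), a mean of 32.0 ± 1.58 CPM. Mir128-1 exceeded Mir128-2 by a ratio of 3.87 (Clopper-Pearson 95% interval 3.14 to 4.80) in replicate 1 and 3.49 (2.81 to 4.35) in replicate 2, with a mean of 3.68 ± 0.270. The ratio holds for reads that fit 1 place: reads that end with the shared 3p arm as annotated are among those set aside, so neither level bounds that of miR-128.

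The bases around the shared 3p arm differ between the copies right after its end, which is why they are shown. Capitals here mark bases of the hairpin outside the annotated arm.
Mir128-1: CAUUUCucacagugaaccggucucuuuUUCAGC
Mir128-2: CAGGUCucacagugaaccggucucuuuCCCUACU
A read of the 3p arm becomes unique among the RefSeq hairpins with 1 base added at its 3′ end, at a length of 22 bases, or with 3 bases added at its 5′ end. The 5p arms are unique as annotated. The tables do not separate the arms, so which of these reads make up the counts of Mir128-1 and Mir128-2 was not tested.

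The Mir9 copies were at the edge of counting. Mir9-3 had 6 counts in replicate 1, or 1.74 CPM (0.639 to 3.79), and 4 counts in replicate 2, or 1.13 CPM (0.308 to 2.90). Mir9-2 had 0 counts in both. A count of 0 allows up to 3 counts, or 0.870 CPM in replicate 1 and 0.849 CPM in replicate 2, of reads that fit this 1 place only. This is a one-sided limit, and the upper ends of the two-sided exact Poisson intervals used elsewhere are 1.07 and 1.04 CPM. Both annotated arms of each Mir9 gene occur in all 3 hairpins, so exact miR-9 reads belong to the reads set aside, and these counts do not bound the level of miR-9.

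The bases around the arms are shown because they are where the 3 copies differ. The 5p arms are shown first and the 3p arms second, with bases outside the arm in capitals.
Mir9-1 5p: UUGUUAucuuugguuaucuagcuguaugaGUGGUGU
Mir9-2 5p: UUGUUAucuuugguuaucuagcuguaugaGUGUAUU
Mir9-3 5p: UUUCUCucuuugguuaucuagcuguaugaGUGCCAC
Mir9-1 3p: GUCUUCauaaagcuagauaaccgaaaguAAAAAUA
Mir9-2 3p: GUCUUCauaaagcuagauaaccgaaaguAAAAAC
Mir9-3 3p: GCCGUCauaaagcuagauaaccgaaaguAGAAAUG
A read of Mir9-3 is unique among the RefSeq hairpins with 1 base added at the 5′ end of the 5p arm, or with 2 bases added at the 3′ end of the 3p arm, a length of 24 bases. At the 3′ end of the 5p arm, all 3 copies alike need 4 added bases, a length of 27. At the 3′ end of the 3p arm, Mir9-1 and Mir9-2 need 6, a length of 28 bases. Whether this accounts for 10 counts of Mir9-3 against 0 of Mir9-2 was not tested.

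Mir124a-1, Mir124a-2 and Mir124a-3 had 0 sense counts in both libraries. Their opposite strands held 1 count in all, on Mir124a-3 in replicate 1, which is below the limit of 3 counts. These 3 genes are copies of 1 mature miRNA, and reads that fit several copies were not counted, so 0 unique counts put no limit on miR-124 in this tissue. The reads with several places in these libraries were 2876 (replicate 1) and 3324 (replicate 2) for each count of the 9 neural genes, and how many of them are miR-124, miR-9 or miR-128 reads was not measured.

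The genes of the whole table were also counted by shared arms. Of 858 genes with a RefSeq arm, 775 share no arm with another hairpin, and 29.8% of these had 0 counts in both libraries, while 29.4% reached 10 CPM in both. Of the 34 genes that share every annotated arm, Mir9-2 and Mir9-3 among them, 70.6% had 0 counts and 11.8% reached 10 CPM. Of the 49 genes that share some arms but not all, Mir128-1 and Mir128-2 among them, 10.2% had 0 counts and 57.1% reached 10 CPM. The genes that share some arms were thus at 0 least often and detected most often, and no order by sharing held over the 3 classes. These classes also differ in which miRNAs they hold, so the shares describe the table and do not measure what was lost.

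**Figure D3:**
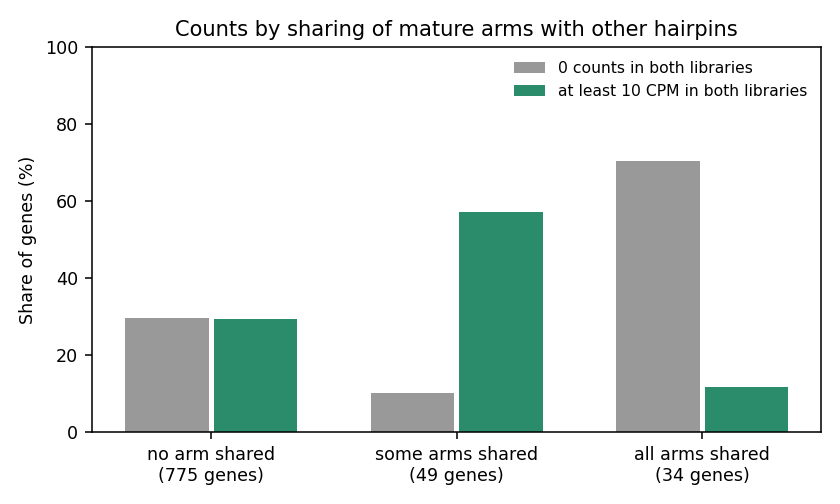
Share of genes (%) with 0 counts in both libraries (grey) and with at least 10 CPM in both (green), for genes whose annotated mature arms occur in no other, in some, or all in another RefSeq hairpin. The 34 genes with all arms shared have the highest share at 0 counts, 70.6%.

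By mean level the order was Mir132, Mir128-1, Mir128-2, Mir212 and Mir9-3. Each gene's lower replicate stood above the higher replicate of the next. For Mir132 and Mir128-1 that gap was narrow, 132 CPM in replicate 2 against 128 CPM in replicate 1. Within a library they stood at 142.7 against 128 CPM in replicate 1 and 132 against 107.5 CPM in replicate 2. Their counting intervals overlapped in replicate 1 but not in replicate 2. Their means differed by 19.8 CPM, less than their SDs added together (7.28 and 14.4 CPM). The levels of Mir128-1, Mir128-2 and Mir9-3 are of uniquely placed reads alone, so this order need not be that of the mature miRNAs.

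Between the libraries, none of the 5 neural genes with at least 10 counts was called as different, where 40.3% of the 464 genes tested were. A call depends on the number of counts. Mir126a was called at a log2 ratio of 0.04 on 478218 counts, and Mir212 was not at 0.42 on 123. The 5 genes held from 10 to 960 counts each, so the lack of calls does not show that they varied less than other genes. The test was a two-sided exact binomial test on library sizes scaled by TMM, adjusted over all 464 genes, and it compares 2 libraries, not conditions. In simulated data it made more false calls with TMM sizes than its threshold allows, so the share of 40.3% may be too high. The test and the simulation both allow for counting error only, so further spread between libraries can also raise the share. The binomial test called 187 genes, and edgeR's negative binomial exact test with a coefficient of variation of 0.1 called 12. With TMM sizes none of the 5 had an unadjusted p below 0.05 in the binomial test either, and none was called by edgeR's negative binomial exact test in any of its 3 forms tried. Where that test estimated the spread between libraries, it did so from these same 2 libraries, and the spread took in the difference tested. A lack of calls there adds no support. As log2 ratios of replicate 2 over replicate 1, Mir132 stood at -0.05 (95% interval -0.24 to 0.13, adjusted p = 0.733, exact binomial test) and Mir212 at 0.42 (-0.12 to 0.96, adjusted p = 0.232). Mir128-1 stood at -0.20 (-0.40 to 0.01, adjusted p = 0.123) and Mir128-2 at -0.05 (-0.44 to 0.35, adjusted p = 0.905, exact binomial test). Mir9-3, on 10 counts, had an interval of -2.83 to 1.51, too wide to show a difference. The 5 genes had a median log2 ratio of -0.05, beside 0.02 over all 464 genes. With library sizes taken as total sense counts, Mir128-1 was called lower in replicate 2, at -0.25 (unadjusted p = 0.0132, adjusted p = 0.0358, exact binomial test). With DESeq2 size factors its unadjusted p was 0.0362 and its adjusted p 0.0875 by the exact binomial test.

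**Figure D4:**
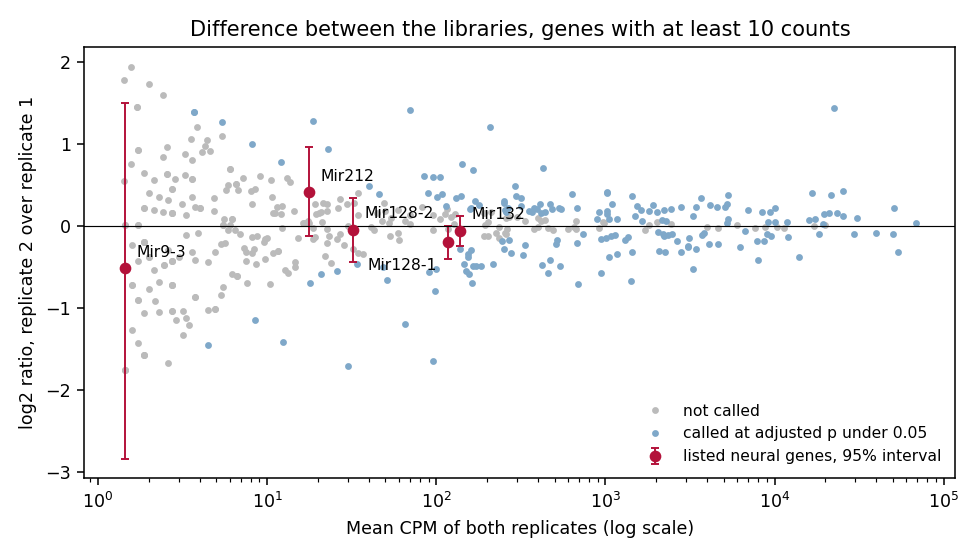
Log2 ratio of replicate 2 over replicate 1 against mean CPM (log axis) for the 464 genes with at least 10 counts, called genes in blue, others in grey, and the 5 neural genes in red with 95% intervals. All 5 red intervals reach across 0.

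Other miRNA genes known from neurons and glia were counted as well, at means from 0.859 CPM for Mir135a-2 to 253 CPM for Mir7-1. A further list of 16 neuron-enriched genes held 0.0557% ± 0.00248 (SD, n = 2) of the counts, with 8 of 16 at 10 CPM or more in both libraries and none at 0. Over all 1973 genes, 15.3% were at 10 CPM or more in both and 1219 were at 0. The 1115 genes with no RefSeq arm weigh on both values, with 3.68% at 10 CPM or more and 86.0% at 0. Most of the list has an arm, and genes with an arm reached 10 CPM more often, as given above. The list was led by Mir7-1, known from neurons and endocrine cells, which had 830 and 941 counts, or 253 ± 18.02 CPM. Mir598 followed with 410 and 438 counts, or 121 ± 3.53 CPM, close to Mir128-1. Mir138-2, a miRNA gene of dendrites, stood at 49.5 ± 3.18 CPM and its copy Mir138-1 at 22.6 ± 2.44 CPM. Mir137, which regulates neural stem cells and synapses, stood at 34.02 ± 8.50 CPM.

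The remaining neuron-enriched genes were lower. Mir218-2, known from motor neurons, Mir7-2 and Mir7b stood at 14.6 ± 3.50, 13.1 ± 3.41 and 11.6 ± 2.03 CPM (SD, n = 2). Mir383, Mir153, Mir488, Mir129-2, Mir218-1, Mir135a-1 and Mir129-1 had between 14 and 63 counts over both libraries, with means from 1.99 CPM for Mir129-1 to 9.001 CPM for Mir383. The 1 other gene of the list, Mir135a-2, had 3 counts in each library; it is named because it is the only one below 10 counts. Of the 19 genes of both further lists, 12 share at least 1 annotated arm with another RefSeq hairpin, so their levels too are of uniquely placed reads. Another 5 share none, and for the other 2, Mir383 and Mir598, no RefSeq arm was matched, so their sharing is not known.

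The oligodendrocyte genes, whose miRNAs promote myelin formation, held 0.0122% ± 0.000130 (SD, n = 2) of the counts. Mir219a-1 had 266 and 309 counts, or 82.3 ± 7.26 CPM. Mir338 had 108 and 91 counts, or 28.5 ± 3.95 CPM, and Mir219a-2 had 42 and 33 counts, or 10.8 ± 2.01 CPM. Mir375, a single gene of endocrine cells chosen as a marker of pancreas and neuroendocrine cells, stood at 2194 ± 153 CPM, far above every neural gene named here. Its part in the levels of the neural genes, like that of any other cell type, was not tested.

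Of the 18 further neural genes with at least 10 counts, 2 were higher and 1 was lower in replicate 2 by the exact binomial test, beside 40.3% called over all genes. Here too a call depends on the number of counts, so the shares are not on equal terms. Their median log2 ratio was 0.17, beside 0.02 over all 464 genes. Mir7-1 was higher, with a log2 ratio of 0.20 (95% interval 0.06 to 0.34, adjusted p = 0.0108, exact binomial test). Mir129-2 was higher on 11 and 27 counts, with 1.28 (0.26 to 2.47, adjusted p = 0.0250, exact binomial test), and had 7 counts on its opposite strand in each library. Mir137 was lower, with -0.46 (-0.85 to -0.08, adjusted p = 0.0409, exact binomial test). Each of these 3 calls was lost under another setting of the binomial test: Mir7-1 with total counts as library sizes, Mir137 with no filter, and Mir129-2 with both strands counted. In edgeR's negative binomial exact test with a coefficient of variation of 0.1 or with the estimated 0.162, none of the 18 was called, and 1 had an unadjusted p below 0.05 in each fit. The value of 0.1 was assumed, and 0.162 came from the same libraries and so took in the differences tested.

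**Figure D5:**
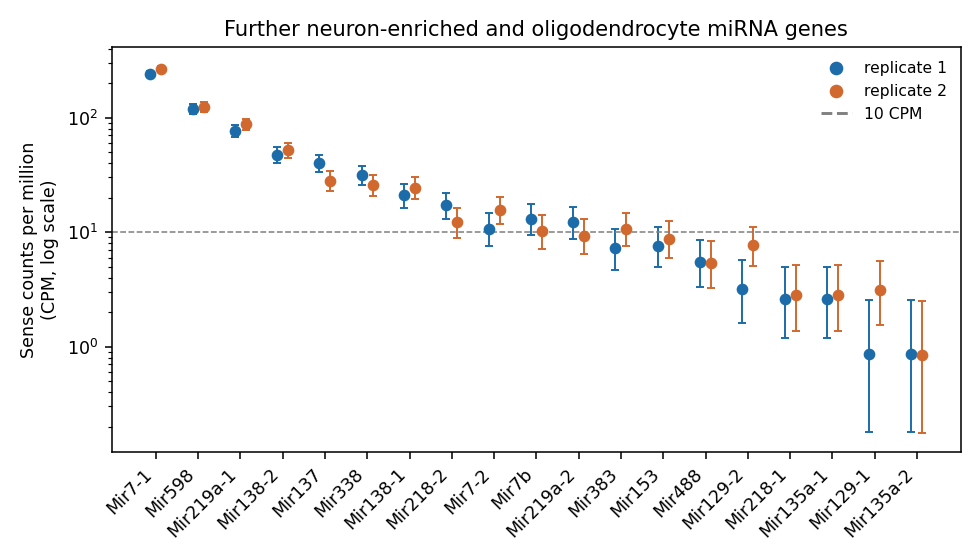
Sense counts as CPM (log axis) of the 19 further neuron-enriched and oligodendrocyte genes, 1 point per replicate with its exact Poisson 95% interval; the dashed line is 10 CPM. Mir7-1, Mir598 and Mir219a-1 lead, and 10 of the 19 genes are at or above 10 CPM in both replicates.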

How the data were processed

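Small RNA libraries of 2 liver pools, sequenced by the submitters, were analysed from the deposited tables of whole-number read counts per miRNA gene, made by the authors on mm10 with GENCODE M4 annotation, per the file lists. The counts hold uniquely placed reads by strand, and reads with several places are given only as a total. The aligner and the counter were not given in the sources used here. Identifiers were named with GENCODE M21 (1894 of 1973 matched), and mature sequences with RefSeq (GRCm38.p6). Sense counts were scaled to CPM, with exact Poisson 95% intervals.

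The libraries were compared by an exact binomial test with TMM library sizes (edgeR 4.0.16, R 4.3.3) over genes with at least 10 counts, Benjamini-Hochberg adjusted at 0.05. Fold changes used log2 with 0.5 added to each count. On simulated data the test kept to this threshold with known library sizes, but made more false calls than the threshold allows once TMM sizes were estimated, and the simulated directions and the limit accepted for that check were changed after this was seen. So the number of genes called over all genes may be too high. The test and the simulation allow for counting error only, so further spread between libraries can raise that number too. Alternatives were total counts, size factors from DESeq2 1.42.0, no filter, both strands, edgeR's negative binomial exact test with an assumed or an estimated coefficient of variation, and each replicate alone.

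The genes named are the 10 neural genes, 2 further neural lists, 5 tissue markers and Mir375. They were chosen, as were the lists, with earlier results of these data known. Mir9-1 is not analysed here.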

Additional observations from a re-analysis of the deposited data

How the results depend on the processing

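No paired analysis was possible because the labels give a single group. Counting both strands in numerator and total lowered Mir132 to 124 CPM, Mir212 to 15.9 CPM and Mir128-1 to 106 CPM. Mir128-2 fell to 28.9 CPM, Mir9-3 to 1.30 CPM and the sum of the neural genes to 277 CPM. These 5 genes had 0 counts on the opposite strand, so for them this was a change of denominator alone. Scaled to all reads of a library, again a change of denominator alone, Mir132 stood at 43.5, Mir212 at 5.57, Mir128-1 at 37.2, Mir128-2 at 10.1 and the sum at 96.8 per 1000000 reads. At a minimum of 100 CPM in both libraries, 2 neural genes were detected instead of 4, and at 1 CPM 5 were. The share of all genes was taken at 10 CPM only, so these counts have none beside them and describe the list alone. The number of genes that differed between the libraries, 187 by the binomial test, was 12 by edgeR's negative binomial test with a coefficient of variation of 0.1 and 5 with the single value of 0.162 estimated from both libraries. It was 2 with a value estimated per gene. Both estimates came from the same 2 libraries and so took in the differences tested, which by itself lowers the number called. That per-gene form was run first, and the single value, which the plan named, was put in its place after the count of 2 had been seen. It is therefore given as an alternative chosen after seeing the data. With total counts as library sizes Mir128-1 passed the threshold, at a log2 ratio of -0.25, and its adjusted p ran from 0.0358 to 1 over 7 alternatives. Of 35 such comparisons of the 5 neural genes between libraries, 34 kept their direction and their side of the threshold. They reuse the same counts of each gene, and the negative binomial forms only allow for more spread. Most of them thus had little room to differ, so this is no strong test of stability. With 2 replicates, the values of either one alone are those given in the report and are no test of stability. Depth limits only the uniquely placed reads of Mir9-3 and of the genes at 0 counts, and reads set aside limit all copies.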
